A study of Mus musculus with 12 samples.

Results

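Glycolysis and the handling of pyruvate were followed through 37 genes, from glucose uptake at the plasma membrane to the regulators of the pyruvate dehydrogenase complex. The genes were listed by name, step by step, by a rule that uses no measured value, although earlier results of these data were known when the list was made, and their rows were taken from a count table of 24453 genes. All 37 passed the filter on low counts, among 14026 genes tested. The samples were 4 lines of mouse embryonic fibroblasts (MEFs) with 3 libraries each. TM6 is an immortalized C57BL6/J line with loxP sites in both *Pnpt1* alleles, labelled *Pnpt1* neo-flox/neo-flox, and *Pnpt1* encodes PNPase, an exoribonuclease of mitochondria. The rho0 line was made from TM6 with ditercalinium dichloride at 750 ng/mL for 3 weeks, a drug that depletes mitochondrial DNA, and was then isolated as a single colony. PKO-1 and PKO-6 are Clone 1 and Clone 6 of TM6 cells that received Cre recombinase by adenovirus, which removes exon 2 of *Pnpt1*. Every line, TM6 included, grew with uridine at 50 µg/mL and none received another agent. The rho0, PKO-1 and PKO-6 libraries each come from a single clone, so the spread between replicates is that between cultures of a clone, and clone and treatment cannot be told apart.

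The libraries held 47164860 to 67991378 counts, of which 12.2% to 19.6% fell on *Rn45s*, the ribosomal RNA precursor. *Pnpt1* itself had 2832 to 3320 normalized counts in TM6, 5051 to 5510 in rho0, 1191 to 1276 in PKO-1 and 1720 to 2214 in PKO-6 MEFs. Normalized counts are counts scaled to a common library size, and the reads over the deleted exon were not counted separately. Of 10 fibroblast markers, 7 had a mean above 100 normalized counts, and their sum ran from 348120 to 629300 over the libraries. *Thy1* and *Lum*, which also mark fibroblasts, had 0 counts in at least 1 library. The summed markers of epithelial, endothelial, blood, neural, muscle and fat cells stayed at or below 533.

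Glucose enters fibroblasts through facilitative transporters and is trapped by hexokinase. Phosphofructokinase commits the sugar to glycolysis, the later enzymes carry it to pyruvate, and lactate dehydrogenase turns pyruvate into lactate, which restores NAD+ and leaves the cell through monocarboxylate transporters. Pyruvate can instead enter mitochondria through the mitochondrial pyruvate carrier and be oxidized by the pyruvate dehydrogenase (PDH) complex, which PDH kinases switch off and PDH phosphatases switch on. Cells without mitochondrial DNA cannot respire, and they live on glycolysis in medium with uridine.

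Which of these steps changed in each line was asked first. A gene was called when its adjusted p (edgeR quasi-likelihood test, Benjamini-Hochberg over all tested genes) was below 0.01 and its absolute log2 fold change above 0.5. In rho0 MEFs, 5 of the 37 genes were called higher than in TM6 (13.5%, against 20.7% of all tested genes) and 9 lower (24.3%, against 21.4%). In PKO-1 MEFs, 5 were called higher (13.5%, against 16.4%) and 8 lower (21.6%, against 17.9%). In PKO-6 MEFs, 2 were called higher (5.41%, against 21.9%) and 12 lower (32.4%, against 19.4%). The share called lower in PKO-6 lay above the share among all genes and the share called higher lay below it, whereas the shares of rho0 and PKO-1 lay closer to those of all genes. The median log2 fold change of the 37 genes was -0.06 in rho0, 0.05 in PKO-1 and -0.18 in PKO-6, beside 0.02, 0.00 and 0.01 over all tested genes. Without rho0 replicate 1, 3 genes were called higher in rho0. The 3 comparisons share the TM6 libraries.

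**Figure D1:**
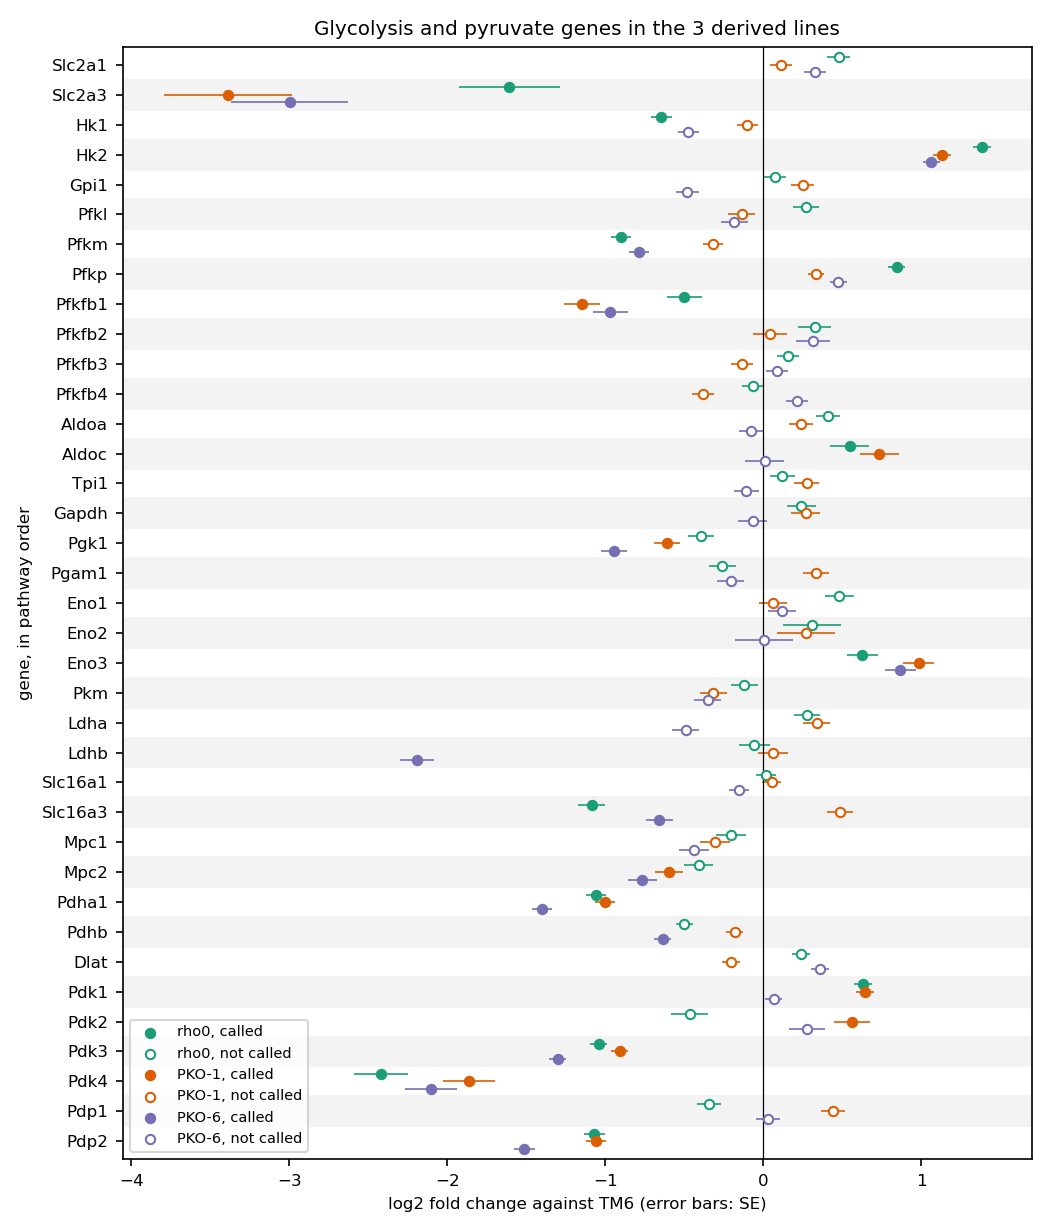
Log2 fold change of the 37 genes against TM6 (x axis, error bars SE) in pathway order (y axis) for rho0, PKO-1 and PKO-6, with filled points for called genes. *Hk2* and *Eno3* lie to the right in all 3 lines, with log2 fold changes from 0.63 to 1.38, while *Slc2a3*, *Pdk4*, *Pdp2*, *Pdha1*, *Pdk3* and *Pfkfb1* lie to the left.

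By level, the enzymes of the trunk of glycolysis held 1.06% of all transcripts in TM6 when measured as TPM, a level corrected for transcript length. Their summed TPM was 10553 ± 86.7 (SD, n = 3) in TM6, 11632 ± 393 in rho0, 10819 ± 170 in PKO-1 and 9190 ± 257 in PKO-6 MEFs. In TPM, PKO-6 lay below TM6 and rho0 above it in every library. As a percentage of counts without *Rn45s*, PKO-6 overlapped TM6, with 1.01% to 1.15% against 1.13% to 1.18%. The sum for lactate dehydrogenase was 858 ± 16.5 TPM in TM6, 1018 ± 31.6 in rho0, 1033 ± 33.8 in PKO-1 and 581 ± 13.8 in PKO-6. Together, the pyruvate carrier and the PDH subunits summed to 359 ± 15.3 TPM in TM6, 243 ± 7.13 in rho0, 237 ± 9.502 in PKO-1 and 207 ± 16.7 in PKO-6. All 9 libraries of the derived lines lay below the 3 TM6 libraries for this sum, of which the X-linked *Pdha1* is part, while *Dlat* alone was higher than TM6 in every rho0 and PKO-6 library. In bulk RNA, a lower level in every cell and a smaller share of cells with a high level cannot be told apart.

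The sequences beside which the data are read are the promoters of genes that were called in each derived line against TM6, and the exons that separate the pyruvate kinase isoforms. The promoter windows hold the 250 bases before the transcription start, from RefSeq on GRCm38.p6, in the direction of transcription. Capitals mark the cores of the hypoxia response element, ACGTG and GCGTG, and the E-box CACGTG, which contains ACGTG, found on either strand. The windows of *Hk2* (chr6:82774455-82774704, minus strand), *Eno3* (chr11:70656926-70657175, plus strand), *Pdk4* (chr6:5496279-5496528, minus strand) and *Pdp2* (chr8:104591222-104591471, plus strand) read as follows, with those of both higher genes before those of 2 lower ones.
Hk2: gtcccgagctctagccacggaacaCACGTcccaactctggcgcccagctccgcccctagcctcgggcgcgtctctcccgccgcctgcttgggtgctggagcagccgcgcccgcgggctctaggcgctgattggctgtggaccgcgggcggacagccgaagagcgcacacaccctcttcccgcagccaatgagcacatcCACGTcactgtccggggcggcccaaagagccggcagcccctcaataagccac
Eno3: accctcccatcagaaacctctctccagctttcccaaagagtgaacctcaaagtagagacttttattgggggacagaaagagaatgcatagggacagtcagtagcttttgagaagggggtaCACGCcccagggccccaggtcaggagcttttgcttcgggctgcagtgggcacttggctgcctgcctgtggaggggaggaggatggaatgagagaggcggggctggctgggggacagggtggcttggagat
Pdk4: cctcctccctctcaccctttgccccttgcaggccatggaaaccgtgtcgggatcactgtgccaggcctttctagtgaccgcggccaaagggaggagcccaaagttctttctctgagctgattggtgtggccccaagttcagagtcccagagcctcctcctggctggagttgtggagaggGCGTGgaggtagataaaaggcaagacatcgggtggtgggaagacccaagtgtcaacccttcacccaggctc
Pdp2: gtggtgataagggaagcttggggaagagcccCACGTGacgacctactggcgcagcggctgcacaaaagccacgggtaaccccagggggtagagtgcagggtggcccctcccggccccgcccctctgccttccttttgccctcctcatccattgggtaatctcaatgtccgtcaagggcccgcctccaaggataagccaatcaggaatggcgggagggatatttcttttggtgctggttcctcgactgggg

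The *Hk2* window held ACGTG in 2 places, *Eno3* and *Pdk4* each held GCGTG once, and *Pdp2* held the E-box. Of the 35 genes with a window, 29 (82.9%) held ACGTG or GCGTG, against 38.6% of all 32851 windows and 54.7% of the 13469 windows of tested genes. ACGTG alone was in 15 (42.9%, against 16.6% of all windows and 21.1% of those of tested genes), GCGTG in 21 (60.0%, against 28.2% and 43.7%) and CACGTG in 5 (14.3%, against 6.02% and 8.17%). These letters were thus found before genes that were called higher and before genes that were called lower, and *Ldha*, with 5 occurrences of ACGTG over both strands, was called in no line against TM6. Each of the 2 E-boxes of *Ldha* counts on both strands among these 5.

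Of the glucose transporters, *Slc2a1*, the common facilitative form, held 99.7% of the summed TPM of the pair with *Slc2a3* in TM6. Its log2 fold change was 0.48 in rho0, 0.11 in PKO-1 and 0.33 in PKO-6, and none was called. *Slc2a3*, a transporter of high affinity best known from neurons, fell in all 3 lines, but from few reads. It had 37 to 39 counts in TM6, 5 to 16 in rho0, 2 to 4 in PKO-1 and 3 to 6 in PKO-6 MEFs. The derived lines did not overlap TM6, with log2 fold changes of -1.61 ± 0.32 (SE, adjusted p = 0.00047) for rho0, -3.39 ± 0.40 (SE, adjusted p = 5.66e-06) for PKO-1 and -2.999 ± 0.37 (SE, adjusted p = 5.99e-06) for PKO-6.

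*Hk2*, the inducible hexokinase of muscle, fat and growing cells, rose in each derived line. Normalized counts of *Hk2* were 3825, 3849 and 3949.7 for TM6, 10447, 9818 and 10078 for rho0, 8551, 9011 and 7911 for PKO-1 and 8097, 8359 and 7839.9 for PKO-6. No library of a derived line reached down to the TM6 range. Against TM6, the log2 fold change was 1.38 ± 0.055 (SE, adjusted p = 7.47e-11) for rho0, 1.13 ± 0.055 (SE, adjusted p = 6.81e-10) for PKO-1 and 1.06 ± 0.055 (SE, adjusted p = 7.56e-10) for PKO-6, or 2.61-fold, 2.19-fold and 2.09-fold. *Hk1*, the constitutive hexokinase, fell in rho0 MEFs by 0.64 ± 0.07 on the log2 scale (SE, adjusted p = 1.3e-06), and its log2 fold changes of -0.10 in PKO-1 and -0.47 in PKO-6 were not called. The PKO-6 value of *Hk1* was called in 4 of 15 alternatives, over which it ranged from -0.56 to -0.28. With the median of its chromosome removed, an alternative added after the data were seen, *Hk1* was at -0.47 in rho0 and was not called. Per length, *Hk2* held 19.9 ± 0.36% in TM6, 50.3 ± 1.504% in rho0, 36.8 ± 0.91% in PKO-1 and 41.9 ± 0.91% in PKO-6 of the hexokinase transcripts (SD, n = 3). The share was higher in every library of the derived lines than in TM6, and an exact permutation test of 3 against 3 libraries cannot give a p below 0.1 here, or below 0.124 after adjustment over the 78 isozyme comparisons.

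**Figure D2:**
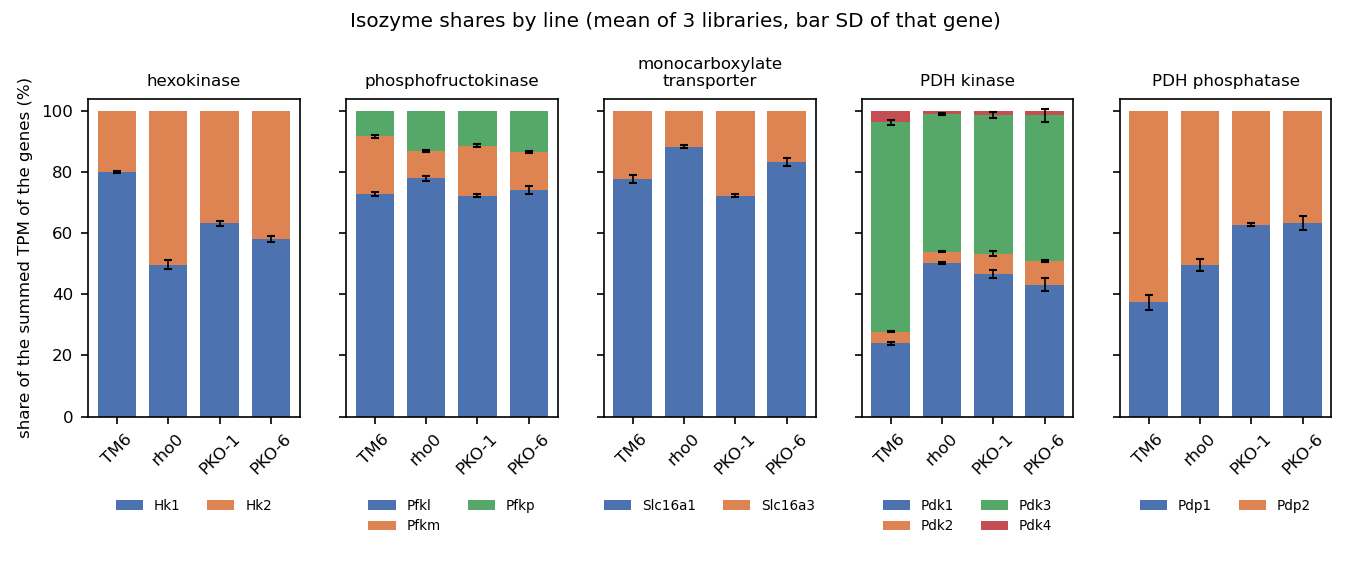
Share of the summed TPM of the genes of a step held by each isozyme (y axis, %), by line (x axis), as the mean of 3 libraries with the SD of each gene at the top of its segment; the topmost gene has no bar. The share of *Hk2* grows from 19.9% in TM6 to between 36.8% and 50.3% in the derived lines, and that of *Pdk1* from 24.0% to between 43.1% and 50.3%. In PKO-6 the level of *Pdk1* was 18.7 TPM beside 18.5 in TM6, and that of *Pdk3* 20.7 beside 52.9.

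Among the phosphofructokinases, *Pfkl* (liver type) was the most abundant per length and was called in no line. *Pfkm*, the muscle type, fell in rho0 and PKO-6 MEFs, with log2 fold changes of -0.90 ± 0.065 (SE, adjusted p = 2.74e-08) and -0.79 ± 0.065 (SE, adjusted p = 9.38e-08), while -0.32 in PKO-1 was not called. With chromosome medians removed, the rho0 value of *Pfkm* was -0.49 and was not called, at a median of -0.38 over the tested genes of its chromosome. *Pfkp*, the platelet type, rose in rho0. Normalized counts of *Pfkp* were 1932, 2010.1 and 1883 for TM6, 3718, 3319.7 and 3418 for rho0, 2483, 2484 and 2369 for PKO-1 and 2684, 2774 and 2636 for PKO-6. All derived libraries were above TM6, and rho0 was the highest. Its log2 fold change was 0.84 ± 0.053 (SE, adjusted p = 6.24e-09) in rho0, and 0.33 and 0.47 in the PKO clones were not called. The share of *Pfkm* in the phosphofructokinase transcripts was 18.8 ± 0.55% in TM6, 8.9 ± 0.32% in rho0, 16.4 ± 0.61% in PKO-1 and 12.6 ± 0.31% in PKO-6, and that of *Pfkp* was 8.2 ± 0.23% in TM6, 13.1 ± 0.50% in rho0, 11.3 ± 0.17% in PKO-1 and 13.3 ± 0.90% in PKO-6.

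Enzymes that make and remove the strongest activator of phosphofructokinase are encoded by the *Pfkfb* genes. *Pfkfb1*, the liver form, fell in all 3 lines. Normalized counts of *Pfkfb1* were 259, 215 and 225 for TM6, 164, 171 and 159.7 for rho0, 98.8, 99.0 and 117 for PKO-1 and 125, 117 and 114 for PKO-6. No derived library overlapped TM6, and the PKO clones lay below rho0. On the log2 scale the change from TM6 was -0.50 ± 0.11 (SE, adjusted p = 0.00108) for rho0, -1.15 ± 0.12 (SE, adjusted p = 1.05e-06) for PKO-1 and -0.97 ± 0.11 (SE, adjusted p = 3.33e-06) for PKO-6. The rho0 value sits at the threshold and was -0.44 without TM6 replicate 1, -0.48 with library totals as the only scaling and -0.499 with a replicate block, which are not calls. *Pfkfb2*, *Pfkfb3* and *Pfkfb4* were called in no line against TM6, with log2 fold changes from -0.38 to 0.32.

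The abundant enzymes in the middle of the pathway were mostly not called. *Gapdh*, the most abundant of all 37 genes at 3549.6 ± 51.8 TPM in TM6, had log2 fold changes of 0.24, 0.27 and -0.07 in rho0, PKO-1 and PKO-6. *Aldoa*, *Tpi1*, *Gpi1*, *Pgam1*, *Eno1*, *Eno2* and *Pkm* were likewise not called in any line against TM6, with values between -0.48 (*Gpi1*, glucose phosphate isomerase, in PKO-6) and 0.48 (*Eno1*, the ubiquitous enolase, in rho0). The PKO-6 value of *Gpi1* was near the threshold and was called in 5 of 15 alternatives, over which it ranged from -0.57 to -0.07. Several differences among these enzymes passed the adjusted p alone, the *Eno1* value in rho0 included (adjusted p = 0.000265). Reads of *Eno1* are shared with its intronless copy *Eno1b*, which held 6.26% to 14.8% of their summed counts, and the summed counts gave 0.48 in rho0.

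*Pgk1*, phosphoglycerate kinase, the first step that yields ATP, was the exception among the abundant enzymes. It fell in both PKO clones, by 0.61 on the log2 scale in PKO-1 (adjusted p = 1.77e-05) and by 0.94 in PKO-6 (adjusted p = 1.75e-07), and its -0.39 in rho0 was not called. Its level was 785 ± 9.31 TPM in TM6, 586 ± 21.6 in rho0, 491 ± 15.3 in PKO-1 and 392 ± 11.1 in PKO-6.

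Among the rarer isozymes, *Eno3*, the muscle enolase, rose in all 3 lines. Normalized counts of *Eno3* were 1359, 1274 and 1259 for TM6, 2312, 1857 and 1844 for rho0, 2719, 2573 and 2419 for PKO-1 and 2364, 2661 and 2079 for PKO-6. Every derived library exceeded the TM6 range. Its fold change on the log2 scale was 0.63 ± 0.098 (SE, adjusted p = 6.09e-05) for rho0, 0.99 ± 0.098 (SE, adjusted p = 1.02e-06) for PKO-1 and 0.87 ± 0.098 (SE, adjusted p = 2.56e-06) for PKO-6, and the rho0 value was 0.496 without rho0 replicate 1, below the threshold. *Aldoc*, the aldolase of brain, rose in rho0 and PKO-1. Normalized counts of *Aldoc* were 140.1, 171 and 129.6 for TM6, 241, 199 and 203 for rho0, 239, 233 and 261 for PKO-1 and 156, 143 and 144 for PKO-6. The rho0 and PKO-1 libraries lay above TM6, and PKO-6 lay within its range. Its log2 fold change was 0.55 ± 0.12 (SE, adjusted p = 0.00128) for rho0, 0.73 ± 0.12 (SE, adjusted p = 0.000135) for PKO-1 and 0.01 ± 0.12 (SE, adjusted p = 0.956) for PKO-6; the rho0 call was lost without TM6 replicate 1 (0.49), TM6 replicate 3 (0.46) or rho0 replicate 1 (0.44). *Eno3* and *Aldoc* were minor forms, at 1.54% of the enolase and 0.24% of the aldolase TPM in TM6.

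**Figure D3:**
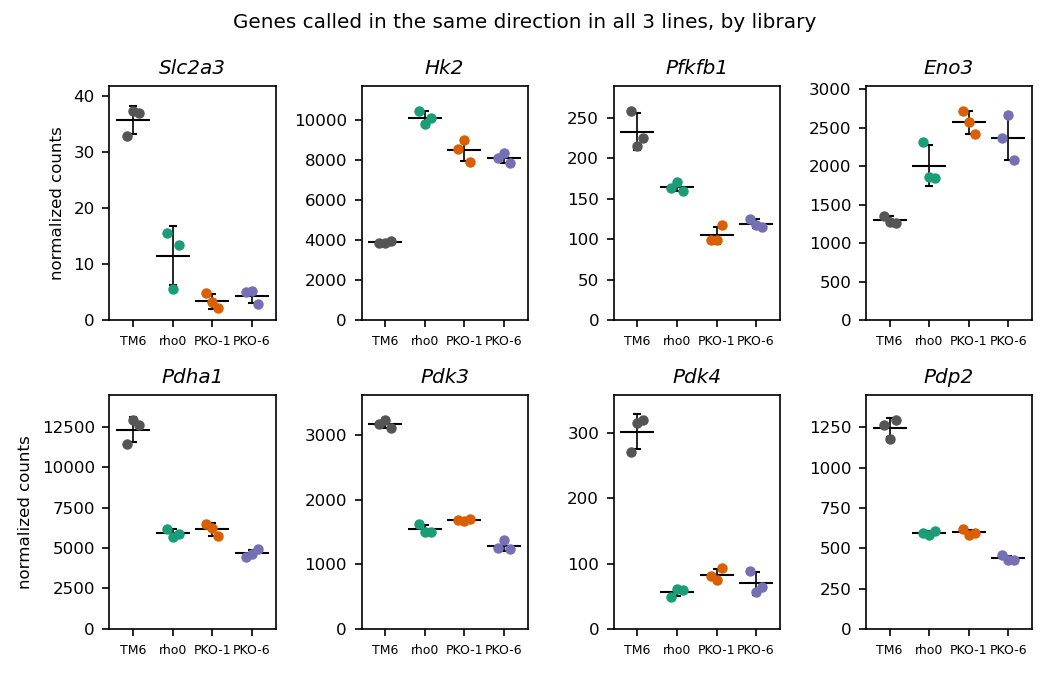
Normalized counts (y axis, from 0) of the 8 genes called in the same direction against TM6 in rho0, PKO-1 and PKO-6 (x axis), with a point per library and the mean ± SD as black marks. The 3 TM6 libraries stand apart from the 9 others in every panel, for *Pdp2* at 1181 to 1295 against 426 to 617. The 3 comparisons share the TM6 libraries, so the count of 8 genes served only to choose which are shown by library. Called higher in all 3 lines were 2 genes (5.41%, against 8.28% of all tested genes), and called lower 6 (16.2%, against 9.25%). Of the lower genes, *Pdha1*, *Pdk3* and *Pfkfb1* are X-linked.

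*Pkm*, pyruvate kinase, is spliced to carry either the M1 or the M2 exon, of 167 bases each, and M2 is the form of growing cells. The exons are at chr9:59675029-59675195 and chr9:59675568-59675734 (GRCm38, plus strand, coding), and capitals mark the 64 bases at which they differ, base by base, as read from the GENCODE transcripts.
M1 exon: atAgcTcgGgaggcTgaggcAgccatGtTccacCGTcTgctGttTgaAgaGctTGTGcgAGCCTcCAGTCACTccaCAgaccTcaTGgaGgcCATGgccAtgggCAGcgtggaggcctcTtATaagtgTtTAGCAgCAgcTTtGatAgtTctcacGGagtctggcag
M2 exon: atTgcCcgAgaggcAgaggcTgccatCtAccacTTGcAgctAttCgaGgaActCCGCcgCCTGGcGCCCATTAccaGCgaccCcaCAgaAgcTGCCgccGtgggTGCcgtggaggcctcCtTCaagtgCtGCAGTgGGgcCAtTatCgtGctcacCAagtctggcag

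M2 was the main form in every library. The share of *Pkm* counts on the M1 transcript was 8.59 ± 0.16% in TM6, 3.88 ± 0.46% in rho0, 7.15 ± 0.16% in PKO-1 and 8.85 ± 0.40% in PKO-6 MEFs (SD, n = 3). The rho0 and PKO-1 libraries lay below the TM6 range, and PKO-6 overlapped it. The difference from TM6 was -4.71 percentage points in rho0, with the smallest exact permutation p that 3 against 3 libraries allow, 0.1, and an adjusted p of 0.282 over 141 transcript comparisons, so no difference in these shares could pass. The gene as a whole was not called in any line, at log2 fold changes of -0.12, -0.32 and -0.35.

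The genes of lactate formation and export were read next. *Ldha*, the subunit that favours lactate formation, held 98.8% or more of the lactate dehydrogenase TPM in every line. Normalized counts of *Ldha* were 39523, 41540 and 39918 for TM6, 54683, 44612 and 47289 for rho0, 52973, 51811 and 48056 for PKO-1 and 29403, 30833 and 25792 for PKO-6. The rho0 and PKO-1 libraries lay above TM6 and the PKO-6 libraries below it. Against TM6 the log2 fold changes of 0.28, 0.34 and -0.49 were not called; that of PKO-6 was near the threshold and was called, for example, with DESeq2 size factors (-0.51).

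*Ldhb*, the subunit of tissues that take up lactate, fell in PKO-6. Normalized counts of *Ldhb* were 359.7, 392 and 331 for TM6, 359, 332 and 349.5 for rho0, 373, 403 and 355 for PKO-1 and 77.8, 87.1 and 71.7 for PKO-6. The PKO-6 libraries stood far below the other 9, which overlapped. Its log2 fold change was -2.19 ± 0.11 (SE, adjusted p = 4.61e-10) in PKO-6, a 4.58-fold lower level, and -0.06 in rho0 and 0.06 in PKO-1.

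Of the monocarboxylate transporters, *Slc16a1*, the broadly expressed form, was called in no line (log2 fold changes -0.15 to 0.05). *Slc16a3*, the lactate exporter of glycolytic cells, fell in rho0 and PKO-6. Normalized counts of *Slc16a3* were 1159.5, 1170.3 and 1087 for TM6, 606, 509.7 and 490.2 for rho0, 1642, 1591 and 1548 for PKO-1 and 781, 729.6 and 654 for PKO-6. The PKO-1 libraries lay above TM6, whereas those of rho0 and PKO-6 lay below it. As log2 fold changes, these were -1.09 ± 0.086 (SE, adjusted p = 7.34e-08) for rho0, 0.48 ± 0.083 (SE, adjusted p = 0.000153) for PKO-1 and -0.66 ± 0.084 (SE, adjusted p = 8.77e-06) for PKO-6, and the PKO-1 value was under the fold threshold. With both clones pooled it was 0.0227. *Slc16a3* made up 22.2 ± 1.37% in TM6, 11.6 ± 0.48% in rho0, 27.7 ± 0.57% in PKO-1 and 16.6 ± 1.21% in PKO-6 of the TPM of the 2 transporters.

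At the entry into mitochondria, *Mpc1* and *Mpc2* encode the subunits of the pyruvate carrier. *Mpc2* fell in both PKO clones, with log2 fold changes of -0.60 ± 0.090 (SE, adjusted p = 5.25e-05) in PKO-1 and -0.77 ± 0.090 (SE, adjusted p = 3.86e-06) in PKO-6, and -0.41 in rho0 was not called. *Mpc1* was not called in any line (log2 fold changes -0.44 to -0.21).

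*Pdha1* encodes the alpha subunit of pyruvate dehydrogenase, the subunit that the kinases phosphorylate, and it fell in all 3 lines. Normalized counts of *Pdha1* were 11433, 12904 and 12579 for TM6, 6196, 5656 and 5854 for rho0, 6481, 6225 and 5732 for PKO-1 and 4439.9, 4617 and 4923 for PKO-6. The 9 derived libraries reached at most 6481, and the TM6 libraries had at least 11433. Compared with TM6, the log2 fold change came to -1.06 ± 0.065 (SE, adjusted p = 5.7e-09) for rho0, -1.002 ± 0.065 (SE, adjusted p = 1.37e-08) for PKO-1 and -1.40 ± 0.066 (SE, adjusted p = 3.03e-10) for PKO-6. *Pdhb*, the beta subunit, fell in PKO-6 (-0.64 ± 0.055 (SE, adjusted p = 1.6e-07)), and its log2 fold changes of -0.50 in rho0 and -0.18 in PKO-1 were not called. The rho0 value of *Pdhb* sat at the threshold and was called in 9 of 14 alternatives, over which it ranged from -0.56 to -0.48. *Dlat*, the acetyltransferase core of the complex, was called in no line against TM6. Normalized counts of *Dlat* were 3573, 4014 and 3881 for TM6, 4641, 4355 and 4532 for rho0, 3479.6, 3328 and 3148 for PKO-1 and 4966, 4927 and 4814 for PKO-6. The PKO-6 and rho0 libraries lay above TM6 and the PKO-1 libraries below it, with log2 fold changes of 0.36, 0.24 and -0.20.

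The PDH kinases moved in different directions. *Pdk1*, a kinase that hypoxia is known to induce, rose in rho0 and PKO-1. Normalized counts of *Pdk1* were 2935, 3140.2 and 3097 for TM6, 5022, 4547 and 4645 for rho0, 4928, 4848 and 4562 for PKO-1 and 3162, 3089 and 3351 for PKO-6. The rho0 and PKO-1 libraries lay well above TM6, and PKO-6 overlapped it. Against TM6, the log2 fold change was 0.63 ± 0.055 (SE, adjusted p = 1.96e-07) for rho0, 0.64 ± 0.055 (SE, adjusted p = 2.14e-07) for PKO-1 and 0.07 ± 0.055 (SE, adjusted p = 0.301) for PKO-6. *Pdk2*, the broadly expressed kinase, rose in PKO-1 from a low level. Normalized counts of *Pdk2* were 197, 193 and 201 for TM6, 164, 129.6 and 134 for rho0, 256, 315 and 301 for PKO-1 and 246, 247 and 224 for PKO-6. PKO-1 was above TM6 and rho0 below it in every library, at log2 fold changes of 0.56 ± 0.11 (SE, adjusted p = 0.000606) and -0.47 ± 0.12 (SE, adjusted p = 0.00282), of which the first was called. The PKO-6 libraries also lay above TM6, at a log2 fold change of 0.28 that was not called.

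*Pdk3*, the most abundant PDH kinase of TM6 per length, fell in all 3 lines. Normalized counts of *Pdk3* were 3168, 3237 and 3121 for TM6, 1627, 1497 and 1498 for rho0, 1690.4, 1675 and 1704 for PKO-1 and 1257, 1374 and 1236 for PKO-6. All derived libraries lay at or below 1704. On the log2 scale the change from TM6 was -1.04 ± 0.053 (SE, adjusted p = 7.97e-10) for rho0, -0.91 ± 0.053 (SE, adjusted p = 4.09e-09) for PKO-1 and -1.30 ± 0.053 (SE, adjusted p = 7.16e-11) for PKO-6. *Pdk4*, the kinase of fasting and fat oxidation, fell most in rho0 and PKO-1 among the genes with over 100 normalized counts in TM6. Normalized counts of *Pdk4* were 271, 315 and 320.1 for TM6, 49.4, 60.9 and 59.2 for rho0, 80.9, 74.6 and 93.1 for PKO-1 and 89.3, 56.0 and 64.0 for PKO-6. No derived library reached 100. Its fold change on the log2 scale was -2.42 ± 0.17 (SE, adjusted p = 2.27e-08) for rho0, -1.86 ± 0.16 (SE, adjusted p = 2.89e-07) for PKO-1 and -2.10 ± 0.16 (SE, adjusted p = 5.77e-08) for PKO-6. Per length, *Pdk3* held 68.7 ± 0.80% in TM6, 45.1 ± 0.32% in rho0, 45.4 ± 0.91% in PKO-1 and 47.7 ± 2.04% in PKO-6 of the kinase TPM, and *Pdk1* held 24.0 ± 0.51% in TM6, 50.3 ± 0.25% in rho0, 46.6 ± 1.33% in PKO-1 and 43.1 ± 2.13% in PKO-6. By counts that were not divided by length, *Pdk1* held 45.4% in TM6 and 73.1%, 69.8% and 66.7% in rho0, PKO-1 and PKO-6, so the level of this share depends on the scale and its direction did not.

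Of the phosphatases that reactivate the complex, *Pdp2* fell in all 3 lines. Normalized counts of *Pdp2* were 1265, 1181 and 1295 for TM6, 593, 581 and 609.7 for rho0, 617, 585 and 594 for PKO-1 and 456, 429 and 426 for PKO-6. The derived lines did not overlap TM6, and PKO-6 was the lowest. As log2 fold changes, these were -1.07 ± 0.066 (SE, adjusted p = 5.37e-09) for rho0, -1.06 ± 0.066 (SE, adjusted p = 7.97e-09) for PKO-1 and -1.51 ± 0.067 (SE, adjusted p = 1.5e-10) for PKO-6. *Pdp1*, the calcium-stimulated phosphatase, was not called against TM6. Normalized counts of *Pdp1* were 879, 959 and 866 for TM6, 759, 706 and 663 for rho0, 1282, 1208 and 1184 for PKO-1 and 873, 887 and 998 for PKO-6. PKO-1 lay above TM6 and rho0 below it, and PKO-6 overlapped it, with log2 fold changes of 0.44, -0.34 and 0.03. *Pdp1* held 37.4 ± 2.43% in TM6, 49.6 ± 2.07% in rho0, 62.9 ± 0.53% in PKO-1 and 63.4 ± 2.34% in PKO-6 of the phosphatase TPM.

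Of the genes that fell, *Pgk1* (chrX:106187100-106203699), *Pdha1* (chrX:160122219-160138430), *Pdk3* (chrX:93764616-93832095) and *Pfkfb1* (chrX:150589921-150643878, all mm10) are on the X chromosome, and they are the only X-linked genes of the 37. The 459 tested genes of the X chromosome had a median log2 fold change of -0.75 in rho0, -0.74 in PKO-1 and -0.87 in PKO-6, and 61.7%, 63.2% and 63.8% of them were called lower. The 4 genes had medians of -0.77, -0.96 and -1.13, and the other 33 of 0.08, 0.06 and -0.11. *Xist*, the RNA that silences an X chromosome, had 29776 to 38495 normalized counts in TM6, 47051 to 109330 in rho0, 15.98 to 53.6 in PKO-1 and 55288 to 99686 in PKO-6 MEFs.

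When the median of each chromosome was removed in every library, an alternative added after the data were seen, *Pdha1* was at -0.29 in rho0, -0.27 in PKO-1 and -0.52 in PKO-6, and only the last of these was called. *Pdk3* was then at -0.27, -0.18 and -0.42, *Pgk1* at 0.38, 0.12 and -0.06, and *Pfkfb1* at 0.27, -0.42 and -0.09, and none of these was called. The part of the X chromosome in the lower levels of the 4 genes was not tested further. Of the 19 calls over the 6 comparisons that were lost with this adjustment, 11 were of X-linked genes and 8 of genes on other chromosomes. Of the 37 genes, 5 were then called lower in rho0 (13.5%, against 18.8% of all tested genes) and 5 in PKO-1 (13.5%, against 15.1%). Of the 12 lower calls in PKO-6, those of *Pfkfb1*, *Pgk1* and *Pdk3* were lost, and *Mpc1* (-0.64) became a call. Over all tested genes, 17.7% were then called lower in PKO-6, a smaller share than among the 37. In rho0 the lost calls were those of *Pfkfb1*, *Pdha1*, *Pdk3*, *Hk1* and *Pfkm*, and *Mpc2* (-0.50) became a call.

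**Figure D4:**
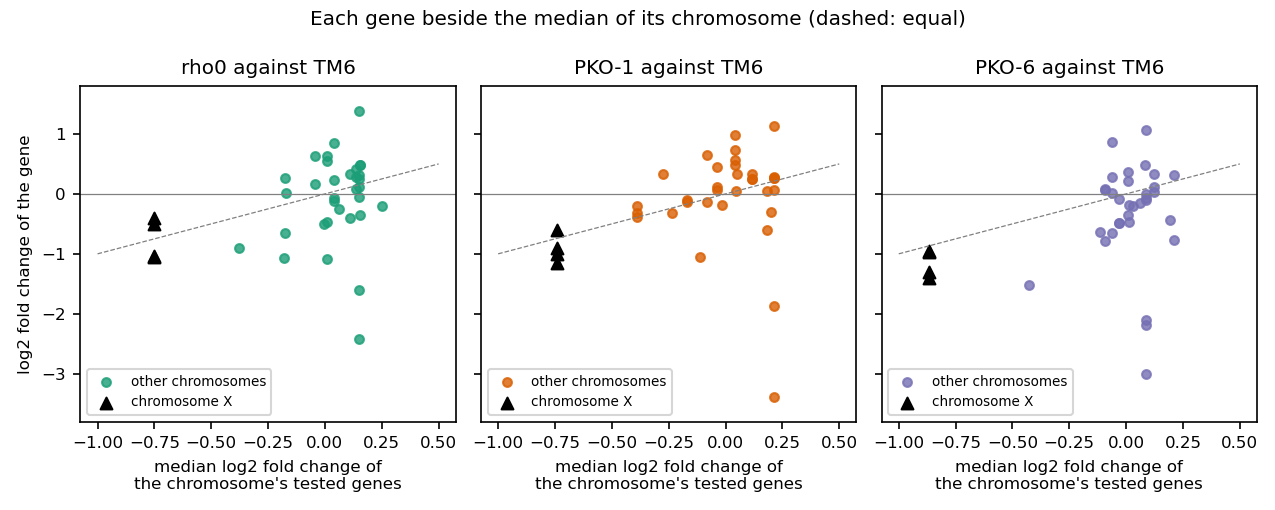
Log2 fold change against TM6 of each of the 37 genes (y axis) beside the median over the tested genes of its chromosome (x axis), 1 panel per derived line, with the dashed line marking equality. The 4 X-linked genes (triangles) lie at chromosome medians of -0.75, -0.74 and -0.87 and on both sides of the dashed line in rho0 and PKO-1; in PKO-6 all 4 lie below it, *Pdha1* at -1.40.

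Whether the PKO clones differ from each other was tested directly. Between PKO-1 and PKO-6, 7 of the 37 genes were called higher in PKO-1 (18.9%, against 11.5% of all tested genes) and 2 lower (5.41%, against 17.6%). The median log2 fold change of the genes was 0.28, beside -0.01 over all genes. Among the higher genes were *Ldhb* (2.26 ± 0.11 (SE, adjusted p = 7.33e-10)), *Slc16a3* (1.14 ± 0.084 (SE, adjusted p = 5.83e-08)) and *Ldha* (0.83 ± 0.084 (SE, adjusted p = 1.37e-06)). *Gpi1* (0.73), *Aldoc* (0.73), *Pdk1* (0.58) and *Pgam1* (0.54) were also higher, *Pgam1* not without PKO-6 replicate 3 (0.47). *Pfkfb4* and *Dlat* were lower in PKO-1. Normalized counts of *Pfkfb4* were 1300.4, 1181 and 1258 for TM6, 1302, 1135 and 1140.1 for rho0, 946, 900.0 and 1026 for PKO-1 and 1436, 1493 and 1414 for PKO-6. The clones lay on opposite sides of the TM6 range, at a log2 difference of -0.60 ± 0.070 (SE, adjusted p = 6.03e-06). For *Dlat* the difference was -0.56 ± 0.055 (SE, adjusted p = 9.46e-07). With chromosome medians removed, *Pfkfb4* was at -0.23 and *Dlat* at -0.19, and neither was called.

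**Figure D5:**
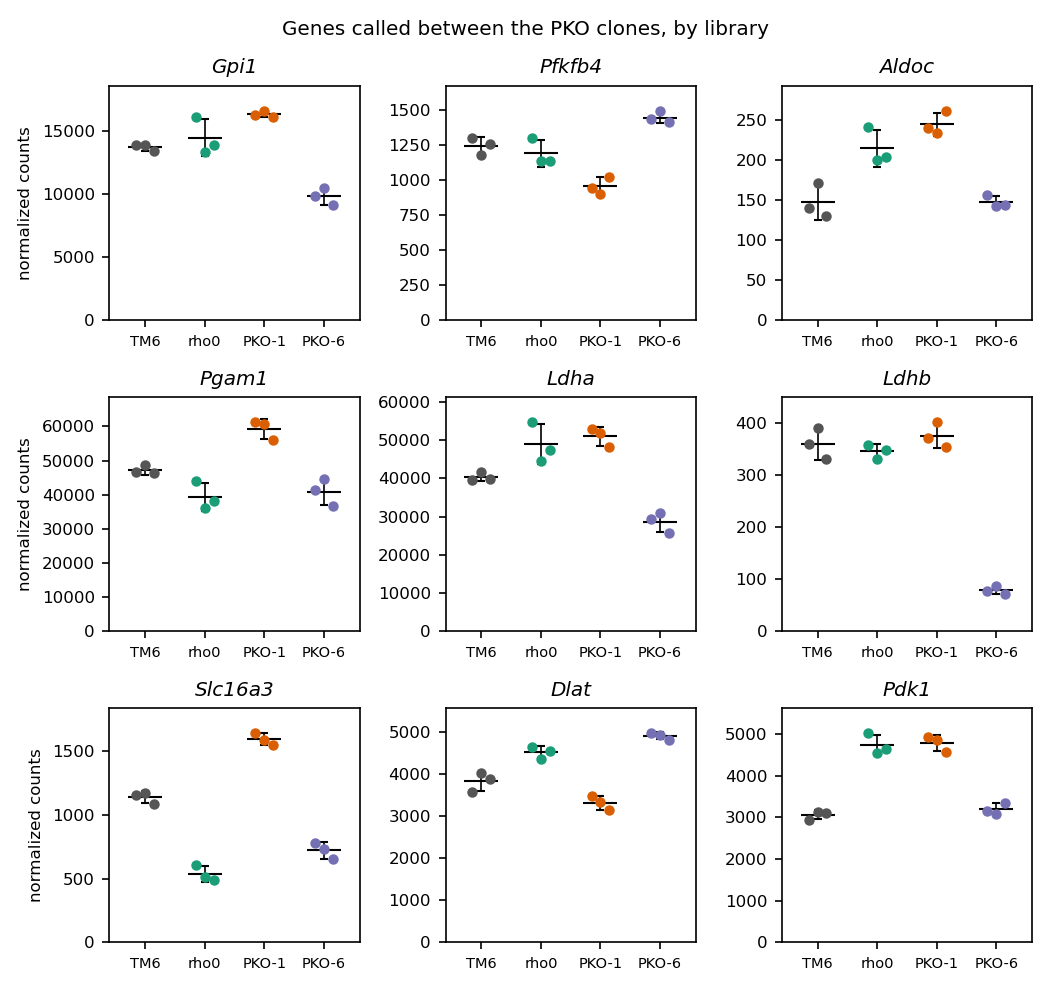
Normalized counts (y axis, from 0) of the 9 genes called between the PKO clones, for each line (x axis), with a point per library and the mean ± SD as black marks. PKO-1 and PKO-6 do not overlap in any panel, and for *Ldhb* the PKO-6 libraries (71.7 to 87.1) lie apart from all other lines (331 to 403).

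Each clone was also compared with rho0, and both comparisons share the rho0 libraries. In PKO-1, 6 genes were called higher than in rho0 (16.2%, against 15.1% of all tested genes) and 3 lower (8.11%, against 17.6%). The largest were *Slc16a3* (1.57 ± 0.086 (SE, adjusted p = 3.24e-09)), *Pdk2* (1.03 ± 0.12 (SE, adjusted p = 4.17e-06)) and *Pdp1* (0.79 ± 0.076 (SE, adjusted p = 8.3e-07)), followed by *Pgam1*, *Pfkm* and *Hk1* (0.59, 0.58 and 0.54). *Slc2a3*, *Pfkfb1* (-0.65 ± 0.12 (SE, adjusted p = 0.000286)) and *Pfkp* (-0.51 ± 0.052 (SE, adjusted p = 1.52e-06)) were lower. *Slc2a3* and *Pfkp* lost the call without rho0 replicate 1 or PKO-1 replicate 3, which left 1 lower gene, and *Slc2a3* lost it also without rho0 replicate 3 or PKO-1 replicate 2, with a replicate block and with DESeq2's Wald test. With chromosome medians removed, *Pfkp* (-0.18) and *Pfkm* (0.39) were not called. *Hk1* lost it without rho0 replicate 2 (0.48).

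In PKO-6, 1 gene was called higher than in rho0 (2.70%, against 13.3% of all tested genes), *Pdk2* (0.74 ± 0.12 (SE, adjusted p = 0.000124)), and 6 lower (16.2%, against 8.16%). The lower genes were *Ldhb* (-2.14 ± 0.11 (SE, adjusted p = 2.53e-09)), *Ldha* (-0.77 ± 0.084 (SE, adjusted p = 4.78e-06)), *Pdk1* (-0.57 ± 0.055 (SE, adjusted p = 1.57e-06)), *Gpi1* (-0.56), *Pgk1* (-0.55) and *Aldoc* (-0.54). Without rho0 replicate 1, *Gpi1*, *Pgk1* and *Aldoc* were no longer called, which left 3 lower genes, and *Pgk1* was also lost without PKO-6 replicate 3. The same 3 genes were not called with chromosome medians removed (-0.43, -0.43 and -0.46), nor was *Aldoc* with library totals as the only scaling (-0.4998). The median log2 fold change of the 37 genes was 0.01 for PKO-1 against rho0 and -0.26 for PKO-6 against rho0.

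Genes that surround the pathway were followed in lists that held none of the 37. Of 28 further isozymes and transporters, 16 were tested, and 5 were called higher and 2 lower in rho0, 4 and 4 in PKO-1, and 4 and 4 in PKO-6. Over all tested genes, 20.7% were called higher and 21.4% lower in rho0, 16.4% and 17.9% in PKO-1, and 21.9% and 19.4% in PKO-6, and with lists of 7 to 21 tested genes the counts given here are read only as descriptions. The sugar transporters *Slc2a10* and *Slc2a6* fell most, with log2 fold changes of -3.70, -4.08 and -4.31 and of -2.97, -3.83 and -2.90 in rho0, PKO-1 and PKO-6. Of 10 gluconeogenic and anaplerotic enzymes, 7 were tested, with 1 higher and 3 lower in each line. *Pck2*, the mitochondrial enzyme that makes phosphoenolpyruvate, rose by 1.74, 0.64 and 1.45 on the log2 scale, and *Me3*, a mitochondrial malic enzyme, fell in PKO-1 by 1.77 from 52.5 normalized counts in TM6.

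Of the 8 pentose phosphate genes, 1 was called higher in each line and 2, 3 and 3 lower in rho0, PKO-1 and PKO-6. *G6pdx*, the X-linked enzyme that opens the branch, had log2 fold changes of -2.02, -1.56 and -1.82, and *Pgd*, the next dehydrogenase, of -0.97, -0.55 and -1.62. Of 10 genes of the shuttles that carry NADH electrons into mitochondria, 1 was higher and 4 lower in rho0, 1 and 1 in PKO-1, and 2 and 5 in PKO-6. *Got1*, the cytosolic aspartate aminotransferase, rose by 1.44, 1.00 and 1.25, and *Gpd1l*, similar to glycerol phosphate dehydrogenase, changed by -1.07, -1.40 and -0.74.

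Of 15 genes of glycogen and hexose entry, 3 were higher and 5 lower in rho0, 1 and 2 in PKO-1, and 2 and 3 in PKO-6. *Pygl*, the liver glycogen phosphorylase, rose in rho0 (1.25) and PKO-6 (3.35) and fell in PKO-1 (-2.06). Its levels were low, with means of 33.8 normalized counts in TM6, 80.4 in rho0, 8.04 in PKO-1 and 345 in PKO-6. *Pmm2*, a phosphomannomutase, fell in rho0 (-0.57) and PKO-6 (-0.94), and its -0.43 in PKO-1 was not called. Of 22 regulators of glycolytic genes, 21 were tested, and 5 were called higher and 2 lower in rho0, 4 and 1 in PKO-1, and 8 and 7 in PKO-6. *Epas1*, a hypoxia-inducible factor, and *Ppara*, a regulator of fat oxidation, had the largest values, at means of at most 64.2 normalized counts in any line. *Epas1* fell in rho0 (-3.49) and PKO-1 (-2.12) and rose in PKO-6 (2.16), and *Ppara* rose in rho0 (2.06) and PKO-6 (3.41).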

How the data were processed

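RNA-seq libraries of 12 samples, 4 lines with 3 biological replicates each, were re-analysed. The authors depleted ribosomal RNA, made stranded libraries in technical duplicate and merged their reads; per the labels, RSEM 1.2.25 with bowtie2 aligned them to mm10 RefSeq transcripts. The deposited values are RSEM expected counts, not normalized, and TPM per transcript, also deposited by the authors. Table and library totals are 47164860 to 67991378 counts. Expected counts were rounded to whole numbers (13 of the 37 genes had decimals, from shared reads) and tested with edgeR 4.0.16 in R 4.3.3 over all 4 lines (filterByExpr with a minimum count of 10, TMM, quasi-likelihood test, Benjamini-Hochberg over 14026 genes), with 6 comparisons. The biological coefficient of variation was 0.0837. Per-library values are given for genes called in the same direction in all 3 lines against TM6 and for called genes among the 3 strongest in either direction of a comparison that had a mean of at least 100 normalized counts in a line; from other lists, 2 called genes each were named by fold change. *Gapdh*, *Pkm* and the remaining genes are given by range or single values. Isozyme shares used TPM, and transcript shares used counts, with exact two-sided permutation tests. Alternatives were other scalings (DESeq2 1.42.0 size factors, library totals), DESeq2's Wald test, other thresholds, a replicate block and left-out libraries; 2 more, the removal of chromosome medians and the sum of *Eno1* and *Eno1b*, were added once values had been seen. Genes and lists were chosen with earlier results of these data known. Libraries with the same replicate number deviated together (correlation above 0.1) in 10 of 18 pairs and apart (below -0.1) in 7. In TM6 and PKO-6 all 3 pairs deviated together (0.21 to 0.25), and all 6 libraries correlated best with their own number. For that comparison the numbers may thus pair the samples, though the labels state no pairing. The values of PKO-6 against TM6 are from the unpaired fit, and the replicate block spanned all 4 lines. No paired fit of TM6 and PKO-6 alone was made.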

Additional observations from a re-analysis of the deposited data

Results flagged for a closer look

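The effects of the PKO clones against TM6 differed by a direct test of PKO-1 against PKO-6 (edgeR quasi-likelihood test in the fit of 4 lines) for 9 of the 37 genes, and this difference is what brought them here. The log2 difference, PKO-1 minus PKO-6, was 2.26 for *Ldhb*, 1.14 for *Slc16a3*, 0.83 for *Ldha*, 0.73 for *Gpi1*, 0.73 for *Aldoc*, 0.58 for *Pdk1* and 0.54 for *Pgam1*. It was -0.60 for *Pfkfb4* and -0.56 for *Dlat*. Genes with more RNA in PKO-1 made up 18.9% of the 37, beside 11.5% of all tested genes. Genes with more RNA in PKO-6 made up 5.41%, beside 17.6%. Differences between the clones were thus common among all tested genes and not particular to this list. Both clones were made from TM6 with Cre recombinase and each is a single colony. A difference between them is thus a difference between colonies, and its cause was not tested. For *Slc16a3* the clones lay on opposite sides of TM6, with log2 fold changes of 0.48 in PKO-1 and -0.66 in PKO-6. In every library of *Ldha*, *Gpi1* and *Pgam1* too, PKO-1 lay above the TM6 range and PKO-6 below it. For *Pfkfb4* and *Dlat* the order was the reverse. In PKO-1 and PKO-6 the log2 fold changes were 0.25 and -0.48 for *Gpi1* and 0.33 and -0.21 for *Pgam1*, none of them called.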

How the results depend on the processing

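Of the 66 calls of the 37 genes over the 6 comparisons, 63 were kept with DESeq2 size factors, library totals, *Rn45s* left out, DESeq2's Wald test, a replicate block, all genes with a count tested and the compared lines fitted alone. Leaving out any 1 library kept 56, and the removal of chromosome medians, added after the data were seen, kept 47. With chromosome medians removed, 5 genes were called lower in rho0 (against 18.8% of all tested genes) and 5 in PKO-1 (against 15.1%), compared with TM6. Between the clones, 0 were lower in PKO-1 (from 2, against 15.7% of all tested genes), and 2 were higher in PKO-6 than in rho0 (against 11.8%). *Pfkfb1* in rho0 (0.27) and *Pgk1* in PKO-1 (0.12) changed sign. Of the 19 calls lost in this way, 11 were of X-linked genes and 8 of others, and the cause was not tested. With both clones pooled, 2 genes were higher in place of 5 in PKO-1, and over all tested genes 1890 in place of 2294. The median of the 37 genes was then -0.0208, beside 0.0289 over all tested genes. The pooled fit gives 1 value for both clones. For *Slc16a3* this value was 0.0227, between 0.48 in PKO-1 and -0.66 in PKO-6. Why fewer genes were called was not tested.

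The thresholds moved the counts by their construction, and the share of all tested genes is given in parentheses. With an absolute log2 fold change above 1, 1 gene was higher in rho0 (10.6%), 1 in PKO-1 (6.61%) and 1 in PKO-6 (12.2%) against TM6, and 5 were lower in PKO-1 (9.6%) and 6 in PKO-6 (9.45%). It left 2 higher (3.93%) and 0 lower (9.97%) in PKO-1 against PKO-6, 2 (5.73%) and 1 (9.97%) in PKO-1 against rho0, and 0 (7.23%) and 1 (3.54%) in PKO-6 against rho0. With the adjusted p alone, 10 were higher (30%) and 14 lower (32.1%) in rho0, 12 (27.5%) and 13 (26.8%) in PKO-1, and 5 higher in PKO-6 (31.1%). It gave 18 higher in PKO-1 against PKO-6 (24.6%), 10 lower in PKO-1 against rho0 (26.2%), and 4 higher (23.1%) and 16 lower (17.6%) in PKO-6 against rho0.

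With 1 library left out, 3 to 7 genes were higher in rho0 against TM6, and 1 to 3 lower in PKO-1 against rho0. In PKO-6 against rho0, 1 to 2 were higher and 3 to 9 lower. Over all tested genes the matching counts were 2610 to 3000, 2164 to 2708, 1658 to 1951 and 1053 to 1494. Without rho0 replicate 1, 3 were higher in rho0 against TM6 (3000 over all tested genes). Against rho0, 1 was then lower in PKO-1 (also without PKO-1 replicate 3), and 2 were higher and 3 lower in PKO-6. Without rho0 replicate 2, 7 were higher in rho0 against TM6 (2610 over all tested genes) and 9 lower in PKO-6 against rho0. The median of PKO-6 against TM6 ranged from -0.28 (without PKO-6 replicate 2) to -0.13.

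The replicate block gave 5 higher and 8 lower genes in rho0, 5 and 8 in PKO-1 and 2 and 12 in PKO-6 against TM6. Over all tested genes it called 2867 higher and 2982 lower in rho0, 2278 and 2483 in PKO-1, and 3050 and 2726 in PKO-6. It ended the calls of *Pfkfb1* in rho0 (-0.499) and *Slc2a3* in PKO-1 against rho0 (-1.76), and changed no other call. Of 78 differences of isozyme shares from TM6, 76 had the same sign by counts not divided by length, and shares moved by up to 23.6 percentage points (*Pdk1*). At 2 to 39 counts per library, the size of the *Slc2a3* change is poorly known.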
